A study of Mus musculus with 6 samples.

Results

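The Hox genes described here are the protein-coding homeobox genes of the mammalian Hox clusters, taken as every row of the deposited expression table whose symbol is Hox followed by a cluster letter and a paralogue number. The table of 20273 rows held 23 of them, 10 of the Hoxa cluster on chromosome 6, 9 of the Hoxb cluster on chromosome 11 and 4 of the Hoxc cluster on chromosome 15. RefSeq annotates 39 such genes in the mouse assembly GRCm38.p6, which is equivalent to the mm10 build of the files, in 4 clusters. The other 16, which include all 9 of the Hoxd cluster on chromosome 2, were not analysed here. Bulk RNA was sequenced from murine small cell lung cancer (SCLC) cells in 6 libraries, 3 labelled ERBB2 KO and 3 labelled WT. The ERBB2 KO cells had been transfected with a Cas9 construct against the receptor gene Erbb2, selected with puromycin and sorted as single clones, and the WT cells were the murine SCLC cells without that knockout. Both came from the study's mouse model of SCLC, in which Rb1 and Trp53 are conditionally deleted, and both were grown in the same medium. The labels give no clone, parental line, culture or batch for any library, so it is not known whether the 3 ERBB2 KO libraries are 1 clone or several or whether all 6 share a parental line.

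Hox proteins are DNA-binding transcription factors that give cells along the head-to-tail axis of the embryo their regional identity. Within a cluster, genes with low paralogue numbers are switched on earlier and further towards the head, and genes with high numbers later and further towards the tail, in the order in which they lie on the chromosome. Many adult cell types keep a set of active Hox genes that reflects the region they came from, and genes of the middle groups, Hoxa5 among them, act in the growing lung and airway.

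A gene is called on in a library where it reached 1 CPM (counts per 1000000 reads), after the authors' log2 scale was undone. At the depth of these libraries, 8927461 to 11792342 reads in ERBB2 KO and 10983851 to 13255671 reads in WT, 1 read was worth 0.0754 to 0.112 CPM, and a gene with no read could have been present at up to 0.226 to 0.336 CPM (3 reads). Across all genes, 13543 were on in at least 1 library, and 26% of them (3521) were on in some but not all 6. Erbb2 was at 12.1, 6.19 and 2.80 CPM in ERBB2 KO 1, 2 and 3, against 10.7, 3.95 and 6.64 CPM in WT 1, 2 and 3, so its transcript did not separate the groups, and a Cas9 edit need not lower the transcript that carries it. The X-linked noncoding RNA Xist, named after its values were seen, was at no more than 0.112 CPM in the 3 ERBB2 KO libraries, against 0, 208 and 178 CPM in WT 1, 2 and 3, which sets WT 2 and WT 3 apart from the other 4. Of the markers of neuroendocrine cells, Ncam1 was at 121 to 353 CPM in ERBB2 KO and 277 to 1253 CPM in WT. Stmn2 was at 134 to 1395 CPM in ERBB2 KO, highest in ERBB2 KO 1, and 13.7 to 143 CPM in WT, and Uchl1 passed 1 CPM only in WT 2 and WT 3. The other 4 of the 7 in the table (Chgb, Syp, Dll3 and Scg2) stayed at or under 0.560 CPM in every library. The labels call the cells epithelial. Of 11 listed markers of lung epithelium, 6 were in the table, of which 2 were on in every library, 2 in some and 2 in none. The keratin gene Krt8 was at 590 to 973 CPM in ERBB2 KO and 402 to 1060 CPM in WT. Krt18 was at 719 to 945 CPM in ERBB2 KO and 282 to 1103 CPM in WT. Cdh1 stayed at or under 0.336 CPM in ERBB2 KO, WT 1 and WT 2 and was at 10.03 CPM in WT 3. Ager passed 1 CPM only in ERBB2 KO 2 (1.70 CPM), and Sftpb and Foxj1 stayed at or under 0.528 CPM in every library.

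The start regions of 4 Hox genes on which the results turn are shown first. Hoxa5 was on in more libraries than any other Hox gene, Hoxa7 and Hoxb4 reached the highest levels of their clusters, and Hoxb8 was the only measured Hox gene whose window held the letters searched for Cdx proteins, the caudal homeobox factors that switch on Hox genes in the embryonic trunk. Each window runs from 250 bases before to 50 bases after the annotated start (RefSeq, GRCm38.p6, 5′ to 3′ on the strand of the gene), at chr6:52204538-52204837 on the minus strand for Hoxa5, chr6:52218524-52218823 on the minus strand for Hoxa7, chr11:96318017-96318316 on the plus strand for Hoxb4 and chr11:96281655-96281954 on the plus strand for Hoxb8. Capitals mark matches on either strand to TTTATNG, which Cdx proteins bind, to AGGTCA, the half-site of retinoic acid and other nuclear receptors, to the promoter box CCAAT or to TATAAA, the letters of the TATA box.
Hoxa5: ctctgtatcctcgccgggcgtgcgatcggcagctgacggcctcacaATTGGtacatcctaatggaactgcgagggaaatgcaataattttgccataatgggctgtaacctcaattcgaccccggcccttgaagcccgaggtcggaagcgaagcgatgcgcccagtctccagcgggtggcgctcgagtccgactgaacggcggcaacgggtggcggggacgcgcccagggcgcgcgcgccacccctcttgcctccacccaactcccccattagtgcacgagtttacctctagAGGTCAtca
Hoxa7: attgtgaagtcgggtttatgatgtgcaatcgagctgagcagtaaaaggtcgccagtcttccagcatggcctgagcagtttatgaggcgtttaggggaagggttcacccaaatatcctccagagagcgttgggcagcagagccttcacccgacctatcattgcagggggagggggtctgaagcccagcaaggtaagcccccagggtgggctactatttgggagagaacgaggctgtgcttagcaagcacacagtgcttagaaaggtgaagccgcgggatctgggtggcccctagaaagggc
Hoxb4: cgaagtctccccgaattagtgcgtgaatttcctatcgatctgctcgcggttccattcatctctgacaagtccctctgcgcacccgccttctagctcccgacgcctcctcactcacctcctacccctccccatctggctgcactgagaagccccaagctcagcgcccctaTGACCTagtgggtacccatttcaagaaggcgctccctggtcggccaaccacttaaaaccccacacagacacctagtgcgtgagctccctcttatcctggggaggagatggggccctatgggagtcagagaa
Hoxb8: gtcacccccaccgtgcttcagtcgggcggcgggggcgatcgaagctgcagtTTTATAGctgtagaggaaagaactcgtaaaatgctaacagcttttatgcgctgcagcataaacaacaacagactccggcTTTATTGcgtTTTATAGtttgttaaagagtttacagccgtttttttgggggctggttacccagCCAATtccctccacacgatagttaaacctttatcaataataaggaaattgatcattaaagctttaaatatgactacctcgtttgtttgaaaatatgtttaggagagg

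The Hoxb8 window held 3 matches to the Cdx letters, which begin 199, 120 and 110 bases before the start, and 2 of these overlap a reverse match to TATAAA. The Hoxa5 window held an AGGTCA match and the Hoxb4 window another on the opposite strand, while the Hoxa7 window held none of the 4 motifs. Windows were found for 11 of the 23 measured Hox genes. Of all 32851 windows in the same table, 10.9% held TTTATNG, 16.3% held AGGTCA, 37.4% held CCAAT and 13.6% held TATAAA. These matches are letters in a window and were not measured as binding.

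Of the 23 Hox genes, 17 were on in at least 1 library and none was on in all 6. ERBB2 KO 1 had 14 Hox genes on, ERBB2 KO 2 had 3 and ERBB2 KO 3 had 2, against 7 in WT 1 and none in WT 2 or WT 3. The 2 libraries with most Hox genes on therefore carried different labels. The remaining 6 genes (Hoxa2, Hoxa3, Hoxa11, Hoxa13, Hoxb2 and Hoxc8) stayed at or under 0.784 CPM in every library. Of the genes on in at least 1 library, 100% of the Hox genes (17 of 17) were on in some but not all libraries, against 26% over all genes. Without ERBB2 KO 1, 9 Hox genes were on in some of the other 5 libraries and none in all of them. Among all genes whose highest library lay in the same range as that of the Hox genes that were on, 1.00 to 45.9 CPM, the share was 37.7% (3403 of 9026), a comparison added after the data were seen.

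**Figure D1:**
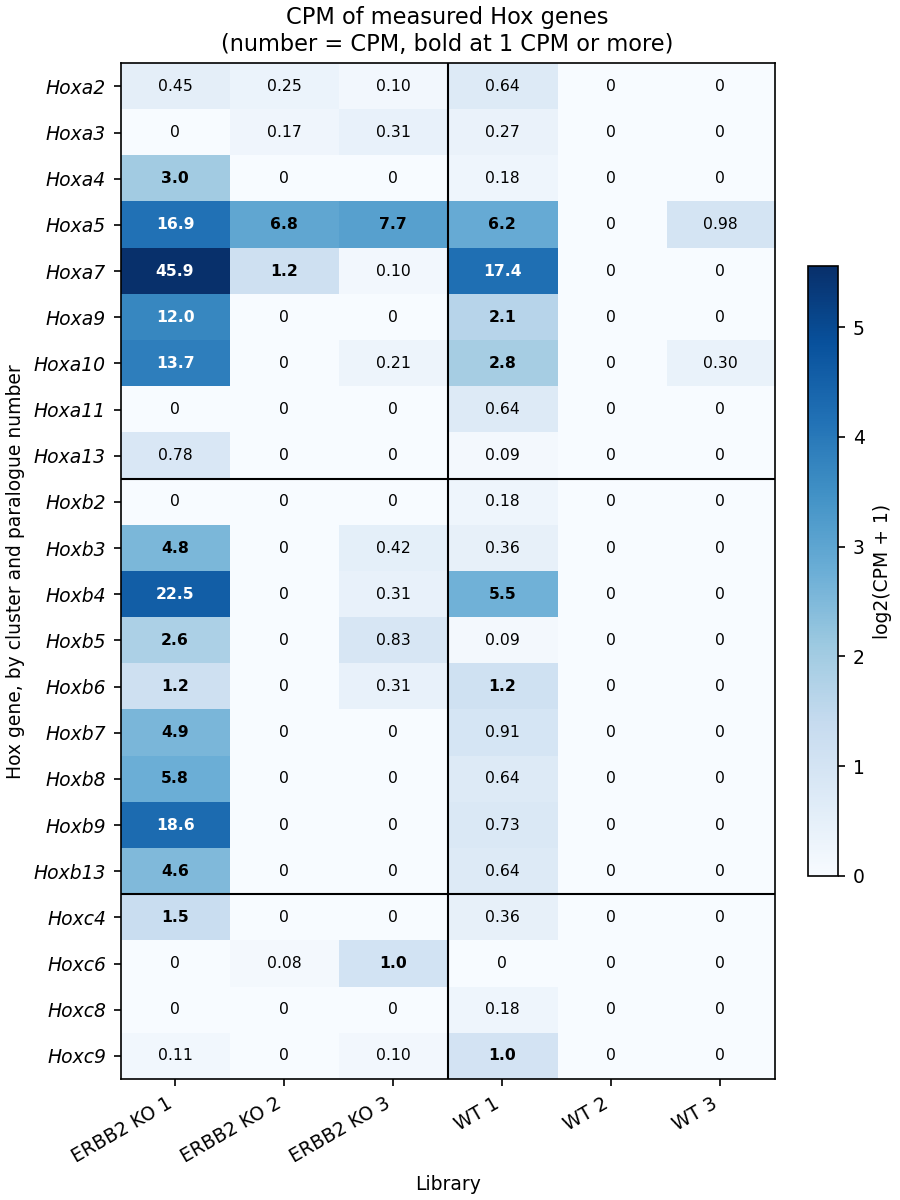
Each cell gives the CPM of a Hox gene (22 rows, by cluster and paralogue number) in 1 of the 6 libraries (columns), with colour for log2(CPM + 1) and bold type at 1 CPM or more. Bold cells fill most of the column of ERBB2 KO 1 (14 genes), fewer that of WT 1 (7 genes) and none in WT 2 and WT 3.

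Summed over the 23 genes, Hox transcripts took 1430, 118 and 114 reads in ERBB2 KO 1, 2 and 3, against 470, 0 and 17 reads in WT 1, 2 and 3. In ERBB2 KO 1 this came to 160 CPM, in ERBB2 KO 2 to 10.0 CPM and in ERBB2 KO 3 to 11.8 CPM, while WT 1 had 42.8 CPM, WT 2 had 0 and WT 3 had 1.28 CPM. The group means were 60.7 ± 86.2 CPM in ERBB2 KO and 14.7 ± 24.3 CPM in WT (SD, n = 3 each). They differed by less than the SD of ERBB2 KO, but by more than that of WT. Without ERBB2 KO 1 the ERBB2 KO mean was 10.9 ± 1.30 CPM (SD, n = 2), and without WT 1 the WT mean was 0.641 ± 0.907 CPM (SD, n = 2). In bulk RNA, fewer cells with an active Hox gene and less Hox RNA in each cell cannot be told apart.

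The clusters took different shares of these reads in different libraries. Hoxa genes made up 58.4% of the Hox reads in ERBB2 KO 1 (exact 95% interval 55.8 to 61.0%) and 72.6% in WT 1 (68.3 to 76.5%). Hoxb genes made up 40.6% in ERBB2 KO 1 (38.1 to 43.2%) and 23.8% in WT 1 (20.05 to 27.9%). These intervals do not overlap, and they cover counting error in single libraries only. In ERBB2 KO 2, 117 of the 118 Hox reads were of the Hoxa cluster and none was of the Hoxb cluster, and all 17 Hox reads of WT 3 were of the Hoxa cluster. ERBB2 KO 3 was the library with the largest share of Hoxc reads, 9.65% (11 of 114 reads, 4.92 to 16.6%). Of these 11 reads, 10 were of Hoxc6. The interval overlapped that of WT 1, where the Hoxc share was 3.62% (2.12 to 5.73%).

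**Figure D2:**
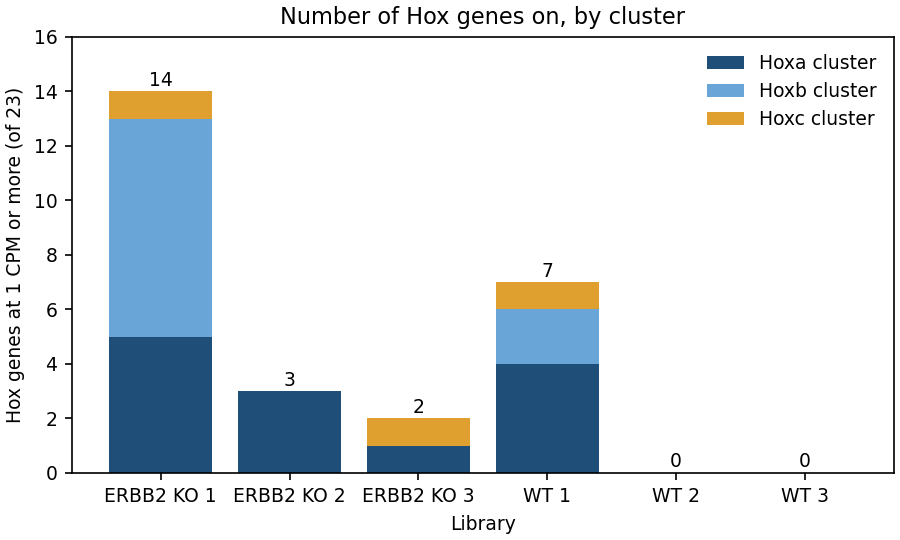
Bars give the number of Hox genes at 1 CPM or more in each library, of 23 measured, coloured by cluster. ERBB2 KO 1 had 5 Hoxa, 8 Hoxb and 1 Hoxc genes on, WT 1 had 4, 2 and 1, ERBB2 KO 2 had only Hoxa genes on, and WT 2 and WT 3 have no bar.

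By position within the clusters, 11 of the 23 measured genes were of the middle paralogue groups, 4 to 8, and 7 were of groups 9 to 13. In groups 4 to 8, 9 of the 11 measured genes were on in ERBB2 KO 1, 2 in ERBB2 KO 2 and 2 in ERBB2 KO 3, against 4 in WT 1 and none in WT 2 or WT 3. In groups 9 to 13, the tail end of the clusters, 4 of the 7 measured genes were on in ERBB2 KO 1 and none in the other ERBB2 KO libraries, against 3 in WT 1 and none in the other WT libraries.

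Among the anterior genes, Hoxb3 was at 4.82, 0 and 0.415 CPM in ERBB2 KO 1, 2 and 3, against 0.364, 0 and 0 CPM in WT 1, 2 and 3, so ERBB2 KO 1 alone stood out. Hoxb3 overlaps Hoxb4 in the annotation, and Hoxa3 overlaps Hoxa4 and Hoxa5. How reads in such overlaps were assigned, and on which strand they were counted, is not known. This touches these 5 genes and Hoxb2, which overlaps the noncoding gene Hoxb3os.

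Hoxa5, which acts in trachea and lung development, lies at chr6:52201754-52204587 and was the Hox gene on in the largest number of libraries. It had 16.9, 6.78 and 7.69 CPM in ERBB2 KO 1, 2 and 3 (151, 80 and 74 reads), against 6.19, 0 and 0.981 CPM in WT 1, 2 and 3 (68, 0 and 13 reads). The groups did not overlap, but the gap between the lowest ERBB2 KO library and WT 1 was smaller than the spread within either group, and WT 3 lay just under the threshold for on. The means were 10.5 ± 5.61 CPM in ERBB2 KO and 2.39 ± 3.33 CPM in WT (SD, n = 3 each). Hoxa5 was the only one of the 23 Hox genes (4.35%) with all ERBB2 KO libraries above all WT libraries, a share set beside 6.75% over all rows with a gene symbol and 8.76% over the genes with a test. None of the 23 lay below WT without overlap, against 7.61% over all rows and 10.6% over the genes with a test.

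Hoxa7, at chr6:52215623-52218573, works in the patterning of the trunk and reached the highest level of any Hox gene here. It had 45.9, 1.19 and 0.104 CPM in ERBB2 KO 1, 2 and 3, against 17.4, 0 and 0 CPM in WT 1, 2 and 3. ERBB2 KO 1 and WT 1 were high and the other 4 libraries were near or at 0, so the groups overlapped. Hoxa4 was on in ERBB2 KO 1 alone, with 3.02, 0 and 0 CPM in ERBB2 KO 1, 2 and 3 and 0.182, 0 and 0 CPM in WT 1, 2 and 3. Hoxa3, which lies around Hoxa4 and Hoxa5 in the annotation, stayed at or under 0.312 CPM.

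The posterior Hoxa genes that were on followed the same split. Hoxa9, known for its part in blood-forming cells and in leukaemia, had 12.0, 0 and 0 CPM in ERBB2 KO 1, 2 and 3, against 2.09, 0 and 0 CPM in WT 1, 2 and 3. Hoxa10, known for its part in the uterus and in blood cells, had 13.7, 0 and 0.208 CPM in ERBB2 KO 1, 2 and 3, against 2.82, 0 and 0.302 CPM in WT 1, 2 and 3. Both genes were on in ERBB2 KO 1 and WT 1 only. Hoxa11 and Hoxa13, which pattern the limb and the hind end of the trunk, did not reach 1 CPM in any library, so the on genes of the Hoxa cluster ended at Hoxa10.

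In the Hoxb cluster, 8 of the 9 measured genes were on in ERBB2 KO 1, with Hoxb2 the exception. Hoxb4, a factor of blood stem cells at chr11:96318267-96321638, had 22.5, 0 and 0.312 CPM in ERBB2 KO 1, 2 and 3, against 5.46, 0 and 0 CPM in WT 1, 2 and 3. Hoxb6 had 1.23, 0 and 0.312 CPM in ERBB2 KO 1, 2 and 3, against 1.18, 0 and 0 CPM in WT 1, 2 and 3. These were the 2 Hoxb genes on in both ERBB2 KO 1 and WT 1, and no Hoxb gene was on in any other library besides these 2.

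The other on genes of the Hoxb cluster passed the threshold in ERBB2 KO 1 only. Hoxb9, which acts in the shaping of the ribs, was at 18.6, 0 and 0 CPM in ERBB2 KO 1, 2 and 3, against 0.728, 0 and 0 CPM in WT 1, 2 and 3. Hoxb8 was at 5.82, 0 and 0 CPM in ERBB2 KO 1, 2 and 3, against 0.637, 0 and 0 CPM in WT 1, 2 and 3. Hoxb7 was at 4.93, 0 and 0 CPM in ERBB2 KO 1, 2 and 3, against 0.910, 0 and 0 CPM in WT 1, 2 and 3, so WT 1 lay just under the threshold. Each of these 3 genes had reads in ERBB2 KO 1 and WT 1 and none in the other 4 libraries. Hoxb13, the most posterior gene of its cluster and a known factor of the prostate, was at 4.59, 0 and 0 CPM in ERBB2 KO 1, 2 and 3, against 0.637, 0 and 0 CPM in WT 1, 2 and 3. Hoxb5 was at 2.58, 0 and 0.831 CPM in ERBB2 KO 1, 2 and 3, against 0.0910, 0 and 0 CPM in WT 1, 2 and 3. Hoxb5 thus had reads in ERBB2 KO 3 (8 reads) as well, at a level whose counting interval of 0.359 to 1.64 CPM spans the threshold.

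The 4 measured Hoxc genes were low throughout, and each was on in at most 1 library. Hoxc4 was at 1.46, 0 and 0 CPM in ERBB2 KO 1, 2 and 3, against 0.364, 0 and 0 CPM in WT 1, 2 and 3. Hoxc6 was at 0, 0.0848 and 1.04 CPM in ERBB2 KO 1, 2 and 3, against no read in any WT library. Hoxc9 was at 0.112, 0 and 0.104 CPM in ERBB2 KO 1, 2 and 3, against 1.00, 0 and 0 CPM in WT 1, 2 and 3. The calls of Hoxc6 and Hoxc9 rested on 10 and 11 reads, just inside the threshold, and their counting intervals of 0.498 to 1.91 and 0.4999 to 1.79 CPM reach below it. Hoxc6 was the only measured Hox gene without a read in either ERBB2 KO 1 or WT 1.

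**Figure D3:**
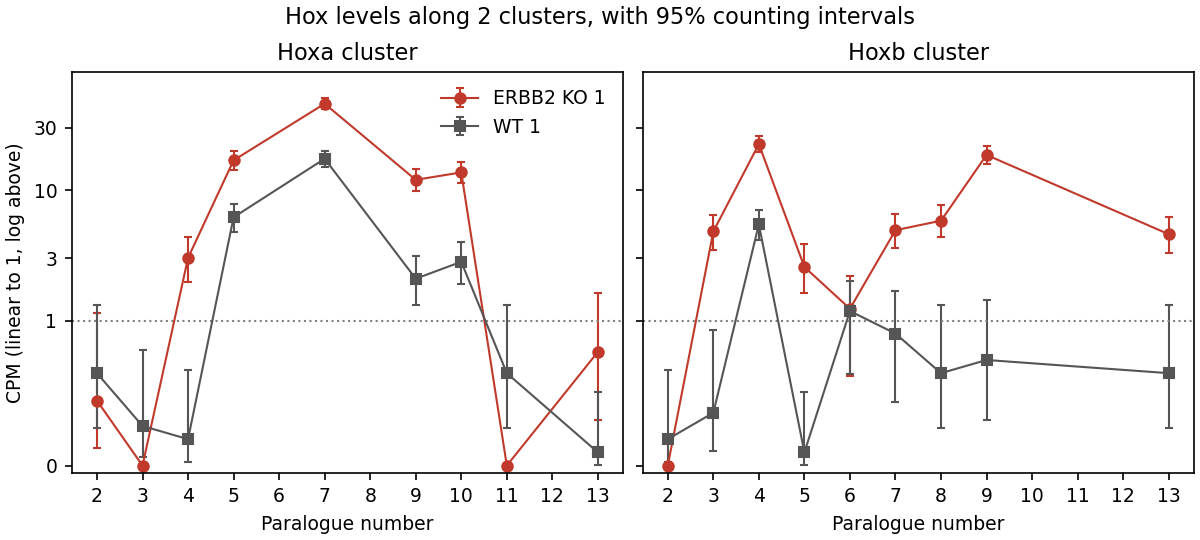
Points give CPM in ERBB2 KO 1 and WT 1 against paralogue number for Hoxa and Hoxb genes from group 2 on, with 95% Poisson counting intervals as bars (none at 0 reads). The vertical axis is linear to 1 CPM and logarithmic above, and the dotted line marks 1 CPM. Both libraries peak at Hoxa7 (45.9 and 17.4 CPM) in one cluster and at Hoxb4 (22.5 and 5.46 CPM) in the other, and at Hoxb6 they are nearly equal (1.23 and 1.18 CPM).

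ERBB2 KO 1 and WT 1 can be set side by side as single libraries, with no replicate check. Of the 23 genes, 16 were higher in ERBB2 KO 1, 6 were higher in WT 1 (Hoxa2, Hoxa3, Hoxa11, Hoxb2, Hoxc8 and Hoxc9, all low) and Hoxc6 had no read in either. For the 12 genes that were on in ERBB2 KO 1 and had more than 3 reads in WT 1, the ratio of ERBB2 KO 1 to WT 1 ran from 1.04 for Hoxb6 to 25.5 for Hoxb9. Since these genes were picked for being on in ERBB2 KO 1, the ratios are a description only, and that of Hoxb6 rests on 11 reads in ERBB2 KO 1 and 13 in WT 1. Hoxa5 and Hoxa7 had ratios of 2.73 and 2.64, Hoxb4 and Hoxa10 of 4.12 and 4.84, and Hoxb8 of 9.14. The ratio was thus not the same for all Hox genes. Across the 23 genes the levels in the 2 libraries had a Spearman rho of 0.67, a description over genes that share their libraries and clusters. WT 1 had reads for 22 of the 23 genes, although only 7 reached 1 CPM, while ERBB2 KO 1 had reads for 18.

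The order of the levels within a library was read on 2 scales, since the sources do not settle whether whole transcripts or only their 3′ ends were sequenced. In CPM, the highest genes of ERBB2 KO 1 were Hoxa7, Hoxb4, Hoxb9 and Hoxa5. In CPM per kilobase of exon they were Hoxa7 (15.9), Hoxa5 (9.01), Hoxb4 (8.77) and Hoxb9 (6.87). On the CPM scale Hoxa7 stood apart, with an interval of 41.6 to 50.6 CPM. Hoxb4 (19.5 to 25.9 CPM) and Hoxb9 (15.9 to 21.7 CPM) overlapped in their counting intervals, as did Hoxb9 and Hoxa5 (14.3 to 19.8 CPM), so the order of these neighbours does not exceed counting error. In WT 1 the order per kilobase was Hoxa7 (6.04), Hoxa5 (3.30) and Hoxb4 (2.13), the same as in CPM.

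Libraries were also compared in pairs, by the number of the 23 Hox genes on in 1 library of the pair only. The number averaged 6.67 over the 9 pairs of an ERBB2 KO with a WT library (2 to 14) and 7.33 over the 6 pairs of libraries with the same label (0 to 14). Without ERBB2 KO 1 these means were 3.83 and 4.25. ERBB2 KO 1 differed from ERBB2 KO 2 in 13 genes and from ERBB2 KO 3 in 14, more than the 9 by which it differed from WT 1. ERBB2 KO 2 and ERBB2 KO 3 differed in 3 genes, and WT 2 and WT 3 in none, because neither had a Hox gene on. Over all genes, the same measure was 9.78 to 14.2% of the genes on in any library for pairs with different labels and 7.05 to 13.9% for pairs with the same label. The low end of the second range was that of ERBB2 KO 2 with ERBB2 KO 3. The next value was 7.52%, for WT 2 with WT 3. Both pairs also differed in few Hox genes, but few were on in these libraries. Only 1 Hox gene was on in both ERBB2 KO 2 and ERBB2 KO 3. ERBB2 KO 3 differed from WT 2 and from WT 3 in 2 of the 23 Hox genes each (8.70%). Over all genes these pairs differed in 8.46% and 7.90%, which was 12.6% and 11.8% of the genes on in any library.

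**Figure D4:**
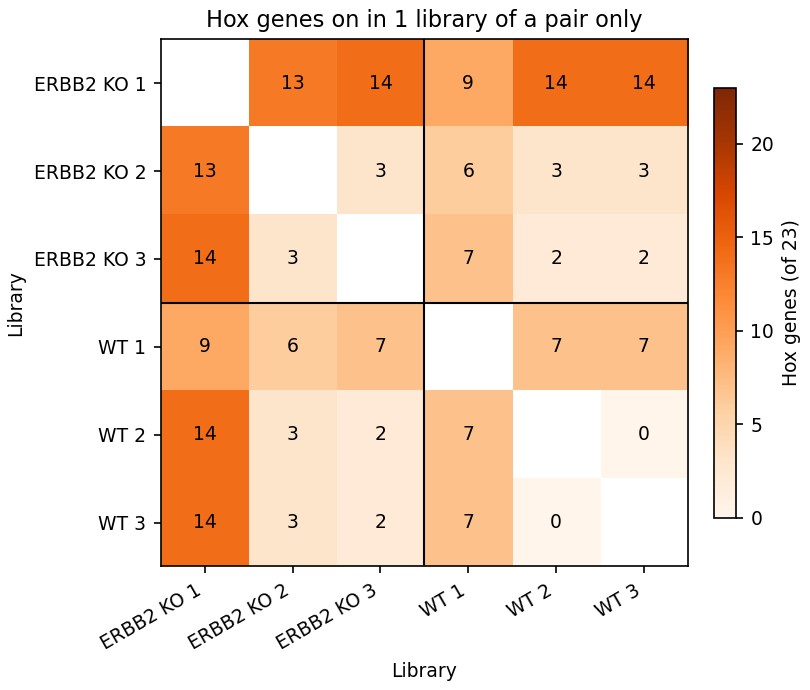
Each cell gives the number of Hox genes, of 23, that were at 1 CPM or more in only 1 of the 2 libraries named by its row and column, with lines between ERBB2 KO and WT. The largest numbers, 13 and 14, lie in the row of ERBB2 KO 1, and the number for WT 2 with WT 3 is 0.

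Differences between ERBB2 KO and WT were tested over 11803 genes with limma on log2(CPM + 1), for genes at 1 CPM or more in at least 3 libraries. At an adjusted p below 0.05, 0 genes passed (0%), and 1561 genes (13.2%) had an unadjusted p below 0.05, 703 of them higher and 858 lower in ERBB2 KO. With voom on the reads recovered from the CPM steps, 0 genes passed as well, with 1553 at an unadjusted p below 0.05. With limma, 30 genes passed without ERBB2 KO 1 and 146 without WT 1, neither Hoxa5 nor Hoxa7 among them. Only 2 of the 23 Hox genes, Hoxa5 and Hoxa7, passed the filter on low values, so the other 21 have no test in this fit. Hoxa5 had a log2 difference of 2.14 (SE 0.72, ERBB2 KO minus WT) with a limma adjusted p of 0.350 and an unadjusted p of 0.0204, and was higher in 3 of 3 ERBB2 KO libraries. Over the alternatives its adjusted p ran between 0.0589 and 0.862. Hoxa7 had a log2 difference of 0.87 (SE 1.64) with a limma adjusted p of 0.837, and without ERBB2 KO 1 the difference was -0.76. Neither difference passed the test, and the p-values measure the spread between libraries that the study calls biological replicates.

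Among the noncoding genes of the clusters, 6 of 11 listed were in the table and 1 passed the filter, Hotairm1, a noncoding RNA of the Hoxa cluster that is known from human myeloid cells. Hotairm1, named after its values were seen, had 7.62, 8.14 and 5.61 CPM in ERBB2 KO 1, 2 and 3, against 5.10, 0 and 0 CPM in WT 1, 2 and 3. As for Hoxa5, the groups did not overlap and WT 1 was close to the lowest ERBB2 KO library. Its log2 difference was 2.14 (SE 0.70) with a limma adjusted p of 0.350. Over the alternatives its adjusted p ran between 0.0169, without WT 1, and 0.862, without WT 2. Without WT 1 its log2 difference was 3.01, and 146 of 11803 genes passed in that setting. The WT group then held only WT 2 and WT 3, the libraries that Xist sets apart. Hoxaas2, an antisense RNA that overlaps Hoxa3, was also named after its values were seen. It had 2.80, 0.678 and 0.519 CPM in ERBB2 KO 1, 2 and 3, against 5.28, 0 and 0.0754 CPM in WT 1, 2 and 3, so the groups overlapped.

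**Figure D5:**
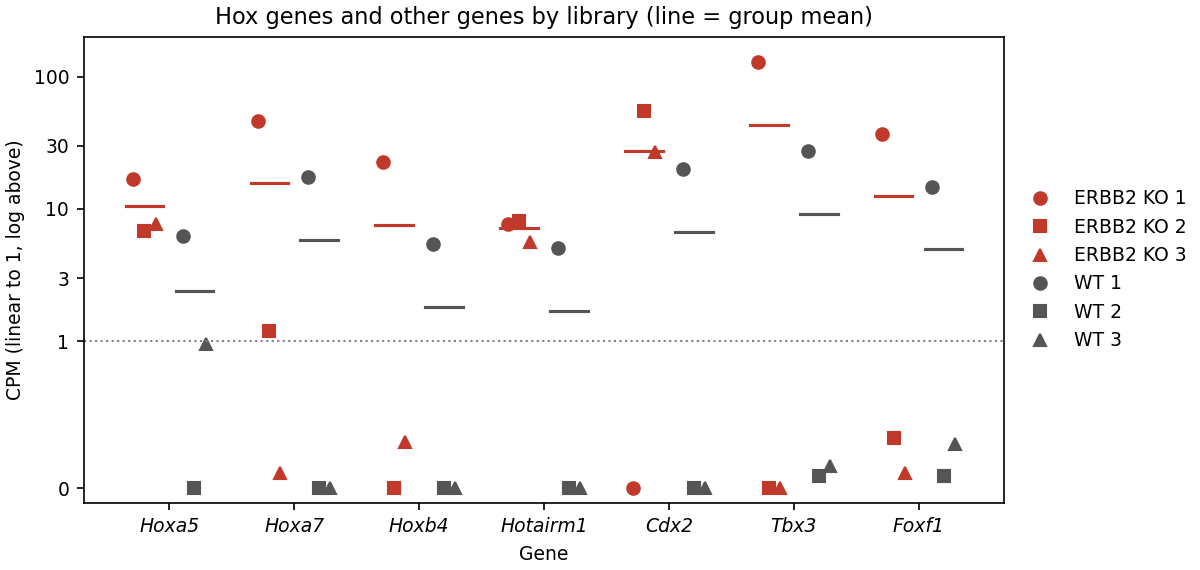
Points give CPM by library for 3 Hox genes and 4 other genes, ERBB2 KO on the left and WT on the right of each gene, with a line at the group mean, and the axis is linear to 1 CPM and logarithmic above. Hoxa7, Hoxb4, Tbx3 and Foxf1 were highest in ERBB2 KO 1 and next in WT 1, while Cdx2 was at 0 in ERBB2 KO 1 and at 54.9 and 27.0 CPM in ERBB2 KO 2 and 3.

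Of the upstream regulators of the clusters, 5 of 7 listed were in the table and tested, and 0 passed in either direction. Cdx2 had 0, 54.9 and 27.0 CPM in ERBB2 KO 1, 2 and 3, against 19.9, 0 and 0 CPM in WT 1, 2 and 3, with a log2 difference of 2.07 (SE 1.74, limma adjusted p 0.609). ERBB2 KO 1, with 14 Hox genes on and Hoxb8 at its highest, had no Cdx2 read. Cdx2 was on in ERBB2 KO 2, ERBB2 KO 3 and WT 1, and it had no read in WT 2 and WT 3 either. Kmt2a, a histone H3 lysine methyltransferase that keeps Hox genes active, was at 167, 79.2 and 67.4 CPM in ERBB2 KO 1, 2 and 3, against 73.4, 166 and 122 CPM in WT 1, 2 and 3. Its highest values were those of ERBB2 KO 1, WT 2 and WT 3. Whether Cdx2 or Kmt2a had a part in the Hox pattern was not tested. The 5 genes had a median log2 difference of 0.09, beside -0.04 over all genes tested.

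The TALE cofactors, homeodomain proteins that bind DNA together with Hox proteins, were all in the table (9 of 9), and 5 of them were on in every library. Of the 8 tested, 0 passed in either direction, 6 had a positive log2 difference, and the median was 0.11 beside -0.04 over all genes tested. Pbx3 was at 55.2 to 71.4 CPM in ERBB2 KO and 52.1 to 68.6 CPM in WT. Meis2 was at 31.3 to 69.7 CPM in ERBB2 KO and 43.8 to 57.9 CPM in WT. Libraries with no Hox gene on still carried transcripts of these partners. Meis1, named after its values were seen, had 8.85, 1.02 and 1.14 CPM in ERBB2 KO 1, 2 and 3, against 1.37, 0.483 and 0.528 CPM in WT 1, 2 and 3.

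Of the retinoic acid pathway, whose receptors act on Hox genes in the embryo, 12 of 17 listed genes were in the table. Of the 8 tested, 0 passed in either direction, 6 had a positive log2 difference, and the median was 0.30 beside -0.04 over all genes tested. The receptor gene Rarg had 66.4, 68.5 and 42.6 CPM in ERBB2 KO 1, 2 and 3, against 48.5, 29.6 and 25.0 CPM in WT 1, 2 and 3, with a log2 difference of 0.79 (SE 0.31, limma adjusted p 0.358). Its groups overlapped through WT 1. Cyp26b1, which breaks down retinoic acid, had 18.0, 18.8 and 7.998 CPM in ERBB2 KO 1, 2 and 3, against 25.1, 2.90 and 12.4 CPM in WT 1, 2 and 3.

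Of the genes that lie beside the clusters, 12 of 14 listed were in the table and 9 were on in every library, unlike any Hox gene. Skap2, which lies beside the Hoxa cluster, was at 14.9 to 28.7 CPM in ERBB2 KO and 15.1 to 22.9 CPM in WT. Calcoco1, beside the Hoxc cluster, had 25.9, 13.5 and 14.2 CPM in ERBB2 KO 1, 2 and 3, against 9.83, 5.80 and 6.86 CPM in WT 1, 2 and 3. Its groups did not overlap, with a log2 difference of 1.12 (SE 0.33, limma adjusted p 0.336). The same held for Atp5g1, at 227 to 284 CPM in ERBB2 KO and 133 to 217 CPM in WT. A listed gene too low to test lay below WT without overlap. Over all genes tested, 8.76% lay above WT without overlap and 10.6% below. Of the 10 tested, 0 passed in either direction, 6 had a positive log2 difference, and the median was 0.19 beside -0.04 over all genes tested.

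Of 25 listed transcription factors that mark position in lung, gut, head and limb, 18 were in the table, and 0 of the 8 tested passed in either direction (median log2 difference -0.17, beside -0.04 over all genes tested). Tbx3, a T-box factor of limb and lung mesenchyme, had 129, 0 and 0 CPM in ERBB2 KO 1, 2 and 3, against 27.2, 0.0806 and 0.151 CPM in WT 1, 2 and 3. Foxf1, a forkhead factor of lung and gut mesenchyme, had 37.1, 0.339 and 0.104 CPM in ERBB2 KO 1, 2 and 3, against 14.7, 0.0806 and 0.302 CPM in WT 1, 2 and 3. Both were high in the same 2 libraries as most Hox genes. Foxa2, a forkhead factor of foregut endoderm, had 0, 12.6 and 12.2 CPM in ERBB2 KO 1, 2 and 3, against 10.7, 0 and 42.9 CPM in WT 1, 2 and 3. Twist1, a factor of mesenchyme, had no read in any ERBB2 KO library or in WT 1, and was at 36.7 and 24.5 CPM in WT 2 and WT 3. Tbx3, Foxf1, Foxa2 and Twist1 thus split the libraries in ways that crossed the labels, but not all listed factors did. Of the 18 in the table, 6 were on in every library, 5 in some and 7 in none. Foxa1 was on in every library, at 9.33 to 9.86 CPM in ERBB2 KO and 9.66 to 13.7 CPM in WT. Gata6 was as well, at 5.51 to 11.4 CPM in ERBB2 KO and 4.03 to 13.7 CPM in WT.

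Some markers of other cell types were also highest in ERBB2 KO 1. Of 7 listed fibroblast markers, 5 were in the table, and their summed level was 48.9 to 305 CPM in ERBB2 KO and 51.5 to 229 CPM in WT. Dcn, which codes for the matrix protein decorin, had 267, 0.509 and 0.312 CPM in ERBB2 KO 1, 2 and 3, against 15.3, 0.403 and 22.3 CPM in WT 1, 2 and 3. Pdgfra had 30.5, 0 and 0 CPM in ERBB2 KO 1, 2 and 3, against 6.92, 1.05 and 0.151 CPM in WT 1, 2 and 3. Both were highest in ERBB2 KO 1, but Dcn was higher in WT 3 than in WT 1. None of the 3 collagen genes was highest in ERBB2 KO 1. Col1a2 had 0.896, 5.51 and 26.1 CPM in ERBB2 KO 1, 2 and 3, against 12.7, 52.2 and 200 CPM in WT 1, 2 and 3. Col1a1 had 0.896, 1.70 and 0.831 CPM in ERBB2 KO 1, 2 and 3, against 7.65, 2.66 and 6.26 CPM in WT 1, 2 and 3. Col3a1 had 5.94, 72.3 and 21.7 CPM in ERBB2 KO 1, 2 and 3, against 8.92, 0.725 and 0.830 CPM in WT 1, 2 and 3. Of 6 listed leukocyte markers, 4 were in the table, with a summed level of 5.43 to 31.8 CPM in ERBB2 KO and 1.58 to 3.10 CPM in WT. The highest of these values was that of ERBB2 KO 1, where Lyz2 was at 24.5 CPM, while the defining leukocyte gene Ptprc had no read there. Cd68 had 7.17, 4.41 and 4.88 CPM in ERBB2 KO 1, 2 and 3, against 2.37, 1.53 and 1.21 CPM in WT 1, 2 and 3. Lyz2 and Cd68 lay above WT without overlap, as did 8.76% of all genes tested (limma adjusted p 0.380 and 0.321). Ptprc and Itgam stayed at or under 0.415 CPM in every library. The 3 endothelial markers summed to at most 0.831 CPM in ERBB2 KO and 0.604 CPM in WT, and the 2 haemoglobin genes to at most 0.224 CPM in ERBB2 KO and 0.0806 CPM in WT. The part of these cell types in the Hox pattern was not tested.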

How the data were processed

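RNA of murine SCLC cells was sequenced in 6 libraries (3 ERBB2 KO, 3 WT), and the groups were taken from the labels. For library preparation, TruSeq total RNA is named in the labels and QuantSeq 3′ in the study's methods, and which applies was not settled. The build is mm10, per the labels. In the study's methods an alignment with Bwa to GRCm39, which differs from mm10, stands with its mutation calls and exon coverage. For these expression values the aligner and counter were not settled. Values in the deposited table are log2 CPM that the authors computed with a small prior, so that all columns share a lowest value of -2.48. CPM was taken as 2 to the value minus 0.179, the CPM of that lowest value. In every column 100% of the values were then whole multiples of 1 step within 0.1 of a step, and the step was taken as 1 read. Symbols turned into dates (14 rows, 0.0966 to 0.184% of the reads) were left out of the tests.

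Genes at 1 CPM or more in at least 3 libraries were tested on log2(CPM + 1), a scale that understates the change of low genes, with limma 3.58.1 (lmFit, eBayes with trend, group as the only term, R 4.3.3), two-sided, at a Benjamini-Hochberg adjusted p below 0.05. Alternatives were pseudocounts of 0.5 and 2, other filters, median-of-ratios scaling, quantile normalization, voom on recovered reads, a replicate block, each library left out, and other thresholds for on (0.5, 2 and 5 CPM, 3 reads). Poisson and exact (Clopper-Pearson) intervals of 95% cover counting error only. Hox genes on in at least 1 library were named with every value, except where a gene is not reported here. Members of the other 6 lists were named if they reached 10 CPM, at most 6 a list. The members and lists were chosen with earlier results of these data known. Sequences, coordinates and overlaps are from RefSeq (GRCm38.p6), counted from 1, and exon lengths from GENCODE.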

Additional observations from a re-analysis of the deposited data

How the results depend on the processing

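The number of Hox genes on depended on the threshold for on. At 5 CPM, ERBB2 KO 1, 2 and 3 had 7, 1 and 1 Hox genes on and WT 1 had 3. At 2 CPM, ERBB2 KO 2 and 3 had 1 each. At 0.5 CPM, WT 1 had 14 and WT 3 had 1. At 3 reads, ERBB2 KO 3 had 8, WT 1 had 17 and WT 3 had 2. WT 2 had 0 under each of these thresholds. The genes on in some libraries numbered 7 at 5 CPM, those on in none 3 at 0.5 CPM, 11 at 2 CPM, 16 at 5 CPM and 2 at 3 reads, and none was on in all libraries under any of them. Leaving out 1 library gave 9 to 17 genes on in some libraries and 6 to 14 on in none, and it was the loss of ERBB2 KO 1 that gave 9 and 14. Over all genes, the share on in some but not all libraries was 29.6% at 0.5 CPM, 24.6% at 2 CPM, 35.3% at 3 reads and 22.4 to 24.8% with 1 library left out, and 37.7% for genes in the level range of the Hox genes. Genes on in only 1 library of a pair averaged 2.89 between groups and 3.00 within a group at 5 CPM, and 11.3 within a group at 3 reads. With 1 library left out these means were 3.83 to 8.17 between groups and 4.25 to 9.25 within a group, lowest without ERBB2 KO 1.

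The limma count of genes with an adjusted p below 0.05 was 0 under each alternative that kept all 6 libraries, and 0 to 146 with 1 library left out (30 without ERBB2 KO 1 and 146 without WT 1). At an unadjusted p below 0.05 there were 618 to 2473 genes with 1 library left out. With 1 library left out the log2 difference of Hoxa7 was -0.76 to 2.27, reversed only without ERBB2 KO 1. The log2 difference of Hoxa5 kept its sign, at 1.498 to 2.92 with 1 library left out and up to 3.99 with voom, and no alternative gave it an adjusted p below 0.05. With no filter, 0 of the 23 Hox genes passed (lowest adjusted p 0.496 by limma). The labels number the libraries 1 to 3 in both groups, but same-numbered libraries did not deviate together (correlations of -0.22, -0.16 and -0.05). With the number as a replicate block 0 genes passed, 1286 had an unadjusted p below 0.05, and Hoxa5 had an adjusted p of 0.416. A gene with no read can still have been present at up to 3 reads, and a Hox gene that was off can have reads, so off does not mean absent.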
